A study of Mus musculus with 4 samples.

Results

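Dense clusters of Meis regions in the mouse forelimb (FL) bud are described here, that is, autosomal stretches of 50 kb in which the FL peak list held 5 or more regions. A region is an interval in which a peak caller found more reads after precipitation with Meis antibodies than in the input chromatin. Each FL region was placed by its midpoint in a 50 kb bin of the mm9 genome, and bins with at least 5 of them were called dense. By this rule 2453 of the 21173 autosomal FL regions (11.6%) were members, in 411 of the 12833 autosomal bins with any FL region (3.20%). The lists went down to weak signal, with a p of up to 0.02198 in the FL and 0.02173 in the HL. At a p of at most 0.0005 in both lists, the stricter of the detection cutoffs named in the methods of the study, 26 dense bins with 169 members were left, and HL regions overlapped 50.3% of these members (42.8 to 57.7) in place of 26.6%. The background over all 6697 autosomal FL regions at that cutoff was 38.6%, in place of 22.5%. The members were therefore selected on the FL list itself, so that all FL values are a description. The hindlimb (HL) list, with 16987 regions on all chromosomes and 16901 on autosomes, took no part in the choice.

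The study mapped where Meis proteins sat on the genome in wild-type C57BL/6 embryos at E10.5, with about 36 somites. Buds from many embryos were pooled, about 500 FLs and about 500 HLs, and for each limb there was a single ChIP library and a single input library of single-end 50 bp reads. A mixture of 2 antibodies served for the ChIP. Between them they bind every isoform of Meis1 (Meis1a by both) as well as Meis2a and Meis2c, so that Meis1 and Meis2 cannot be told apart. Since neither limb was replicated, FL and HL values are set side by side without a test, and the intervals given cover counting error only. Peak lists hold no expression values, so the labelled tissues could not be checked against marker genes.

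Meis1 and Meis2 are homeodomain transcription factors of the TALE class, which bind DNA together with Pbx and Hox proteins. In the early limb bud they are found in the proximal domain, next to the body wall, and retreat from the distal part as the bud grows. Hox genes, which stand side by side in 4 clusters, code for their partners and give positional identity along the body and the limb.

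At the gene starts in dense bins, 16 member regions reached into the interval from 250 bp before to 50 bp after a start. Starts were known only for genes named beside Meis summits shared by the limbs, so the HL list helped to decide which starts were seen. Of the 16 regions, 5 had a q of at most 0.05 and 5 were overlapped by an HL region (31.3% each, 14.2 to 55.6). These intervals include the background of 17.4% and 22.5% over all autosomal FL regions. Both conditions were met by 4, at Hoxa2, Meis2, Tbx18 and the transcript 5730596B20Rik within the HoxA cluster. The 250 bases before the RefSeq start of those 4 genes (GRCm38.p6, 5′ to 3′ on the strand of the gene) are printed because an FL region that reached into that interval had a q of at most 0.05 and was overlapped by an HL region. Capitals mark TGACAG, the hexamer that Meis proteins bind, and TGATTGAT or TGATTTAT, octamers of Hox-Pbx dimers, on either strand.
Hoxa2, chr6:52164832-52165081, minus strand: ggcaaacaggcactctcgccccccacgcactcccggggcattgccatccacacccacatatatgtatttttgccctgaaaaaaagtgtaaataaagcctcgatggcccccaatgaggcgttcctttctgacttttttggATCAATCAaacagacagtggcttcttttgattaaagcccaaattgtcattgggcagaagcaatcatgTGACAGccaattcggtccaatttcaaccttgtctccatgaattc
5730596B20Rik, chr6:52176905-52177154, plus strand: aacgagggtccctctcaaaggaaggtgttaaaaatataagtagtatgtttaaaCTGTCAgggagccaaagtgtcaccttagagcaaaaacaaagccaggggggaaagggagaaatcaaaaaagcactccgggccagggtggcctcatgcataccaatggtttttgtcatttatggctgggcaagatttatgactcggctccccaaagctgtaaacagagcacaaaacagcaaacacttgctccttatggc
Meis2, chr2:116064620-116064869, minus strand: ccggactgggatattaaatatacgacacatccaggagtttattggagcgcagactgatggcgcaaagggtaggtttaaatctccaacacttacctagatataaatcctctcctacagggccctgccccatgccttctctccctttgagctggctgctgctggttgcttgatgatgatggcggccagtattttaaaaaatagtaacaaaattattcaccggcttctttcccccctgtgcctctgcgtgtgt
Tbx18, chr9:87731261-87731510, minus strand: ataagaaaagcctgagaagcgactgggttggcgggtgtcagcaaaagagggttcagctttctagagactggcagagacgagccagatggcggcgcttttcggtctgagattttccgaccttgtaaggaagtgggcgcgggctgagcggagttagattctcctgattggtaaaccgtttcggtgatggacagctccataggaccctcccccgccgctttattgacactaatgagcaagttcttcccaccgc
The Hoxa2 window held TGACAG and TGATTGAT, the 5730596B20Rik window held TGACAG, and the Meis2 and Tbx18 windows held none of the 3 motifs. Over all 32851 RefSeq promoter windows of this length, 15.9% held TGACAG, 0.670% held TGATTGAT and 0.837% held TGATTTAT. A match of letters is a description only. The mm9 starts used for the regions and the RefSeq starts are not always the same, since the distance from Hoxa2 to Hoxa5 differed by 582 bp between them and that from Meis2 to Spred1 by 125 bp, so the printed bases may lie beside the region.

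The region at the Hoxa2 start (chromosome 6, 52115005 to 52115511) had an FL fold enrichment, the ratio of ChIP signal to local background, of 9.75. The HL region that overlapped it (52115082 to 52115350) lay just outside the interval at the mm9 start used and had 7.72. Hoxa2 patterns the hindbrain and the branchial arches. At Meis2, itself a source of the precipitated protein, the region (chromosome 2, 115890874 to 115891446) had folds of 8.50 in the FL and 6.36 in the HL. The region at 5730596B20Rik (chromosome 6, 52126932 to 52127574) had 5.31 in the FL and 3.96 in the HL, where its q was 0.0511. At Tbx18, a T-box gene of the limb and the body wall, the region (chromosome 9, 87625867 to 87626312) had 3.65 in the FL and 2.42 in the HL, and its HL q was 1. The other 12 starts included those of Hoxa5, Hoxb1, Alx4, Tcf7l2, Spred1 and Zfp503. The Zfp503 region was the 1 of these 12 with an FL q of at most 0.05 (0.0189), and the Sfi1 region was the 1 that an HL region overlapped.

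Across the 411 dense bins, the HL list held 1400 regions, between 0 and 18 per bin with a median of 3. In 26 dense bins (6.33%) it held none, against 5818 (45.3%) of all autosomal bins with an FL region. In 100 dense bins (24.3%, 95% Wilson interval 20.4 to 28.7) the HL list also reached 5 regions, where the background over all autosomal bins with an FL region was 1.95%. The HL count went up with the FL count of the bin. It averaged 0.609 in bins with 1 FL region, 1.15 with 2, 1.70 with 3, 2.20 with 4, 2.80 with 5, 2.96 with 6 and 5.77 with 7 or more. Per FL region this made 0.571 HL regions in dense bins and 0.584 in all bins with an FL region, while the whole autosomal lists stood at 0.798. Both ratios for chosen bins leave out the bins with HL regions only, which by itself lowers them. When bins were instead chosen on 5 or more HL regions, 257 bins held 1570 HL and 1103 FL regions, or 0.703 FL regions per HL region, and the 100 shared bins were 38.9% of them.

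**Figure D1:**
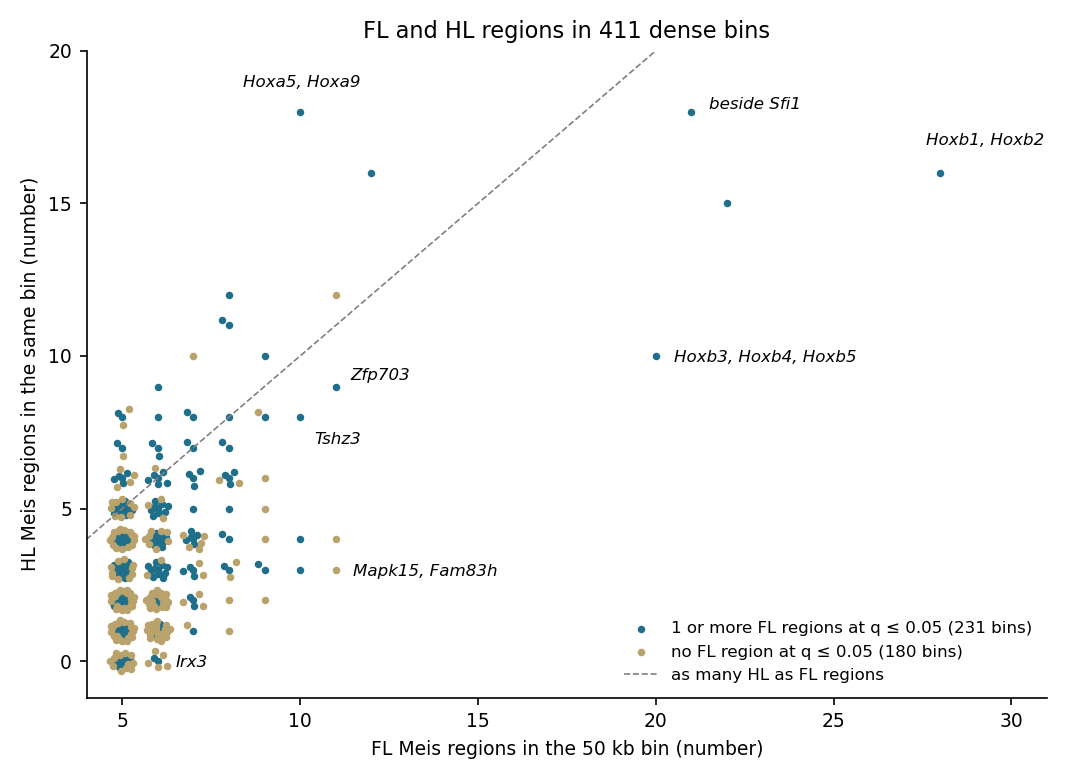
Number of FL regions (horizontal) and of HL regions (vertical) in each of the 411 dense bins, with points spread slightly around whole numbers. The bin of Hoxb1 and Hoxb2 lies farthest to the right with 28 FL and 16 HL regions, and 31 bins have more HL than FL regions.

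Just inside the threshold, the 226 bins with exactly 5 FL regions held a median of 3 HL regions, and just outside it the 462 bins with exactly 4 held a median of 2. The HL list reached 5 regions in 39 (17.3%) of the former and 42 (9.09%) of the latter. HL regions overlapped 272 of 1130 FL regions (24.1%) in the former and 414 of 1848 (22.4%) in the latter, and the median FL fold was 2.72 and 2.70.

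Of the 2453 members, 653 shared at least 1 bp with an HL region (26.6%, interval 24.9 to 28.4), where the background over all autosomal FL regions was 22.5%. The share lay between 20.96% and 24.1% in bins with 1 to 6 FL regions and was 34.9% (31.5 to 38.6) in the 78 bins with 7 or more. It went up with the FL fold. Among members with a fold under 3 it was 12.6% (11.1 to 14.3), from 3 to 5 it was 42.3% (38.4 to 46.2), and at 5 or more it was 85.7% (80.4 to 89.6). In autosomal bins that were not dense the corresponding shares were 9.47% (8.95 to 10.02), 32.7% (31.5 to 33.9) and 81.5% (79.4 to 83.4). Longer members were overlapped more often too, with 8.61% under 150 bp, 24.5% from 150 to under 300 bp and 72.2% at 300 bp or more, against 7.48%, 23.4% and 62.5% outside the dense bins. A bin with more HL regions also offers more places to be overlapped, and the part of this in the shares was not tested.

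**Figure D2:**
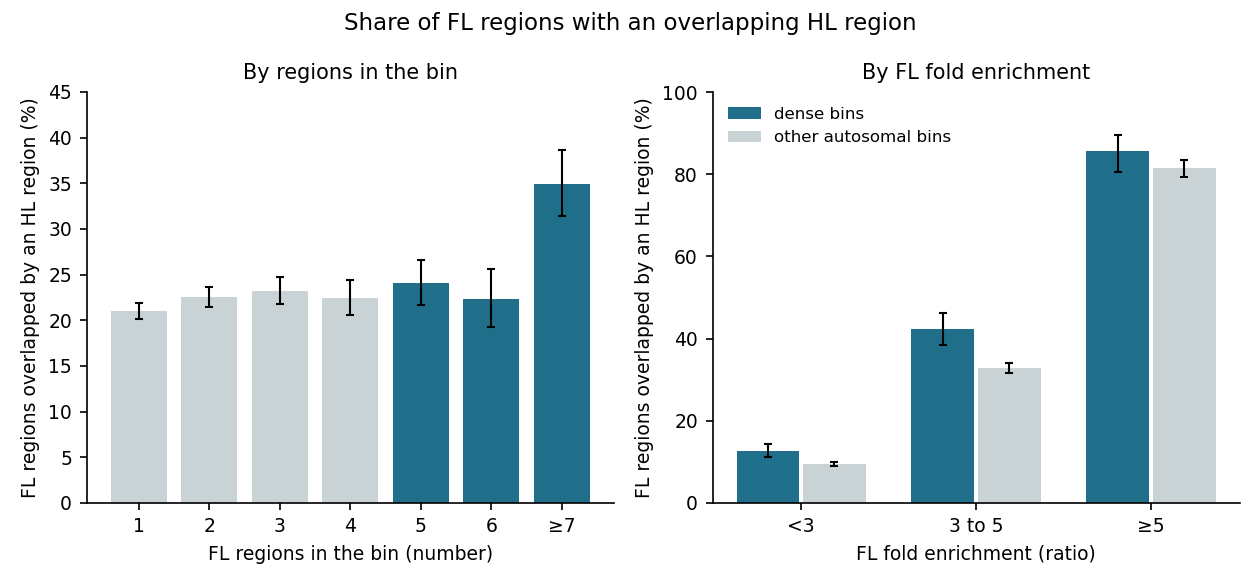
Percent of FL regions overlapped by an HL region, by the number of FL regions in the 50 kb bin (left, dense bins in blue) and by FL fold enrichment in dense and other autosomal bins (right). Bars are shares and lines 95% Wilson intervals. The share is 34.9% in bins with 7 or more FL regions, and among members it goes from 12.6% at folds under 3 to 85.7% at folds of 5 or more.

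The members were mostly weak regions that lay close together. Their median fold was 2.70 (quartiles 2.37 and 3.24), beside 2.79 in the other autosomal bins, and 459 of 2453 (18.7%) had a q of at most 0.05 where the background was 17.4%. The median gap between neighbouring members of a bin was 3.05 kb, and 614 of 2042 gaps (30.1%) were under 1 kb. More than 1 summit was listed for 212 members (8.64%), against 5.82% of other regions. In 180 of the 411 dense bins no FL region reached a q of 0.05. A dense cluster was thus not always a cluster of strong regions. HL regions overlapped 85 of the 1037 members (8.20%) in those 180 bins and 568 of the 1416 members (40.1%) in the other 231.

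Hox clusters were among the most crowded stretches. The bin of Hoxb1 and Hoxb2 (chromosome 11, 96200001 to 96250000) came first of all with 28 FL and 16 HL regions. The bin of Hoxb3, Hoxb4 and Hoxb5 (chromosome 11, 96150001 to 96200000) had 20 and 10. These genes belong to the 3′ side of their cluster, which is expressed earliest and reaches farthest to the head. The bin of Hoxa5 and Hoxa9 (chromosome 6, 52150001 to 52200000) had 10 FL and 18 HL regions, the highest HL count among dense bins together with a bin beside Sfi1. The bin that follows Hoxb1 (chromosome 11, 96250001 to 96300000) also had more HL than FL regions, 16 against 12. In HoxD, the bin of Hoxd12, a gene of the distal limb, had 8 FL and 11 HL regions (chromosome 2, 74500001 to 74550000) and its neighbour 9 and 10. In HoxC, the bin of Hoxc5 had 6 and 9 (chromosome 15, 102800001 to 102850000) and that of Hoxc4 had 6 and 5. A dense bin at Smug1, within 100 kb of Hoxc4, had 6 and 2. Of the 39 Hox genes, 12 had a start in the annotation used, and all 12 starts lay in dense bins, 7 bins in all, where the background over all 1963 autosomal genes with a start was 4.38%. Starts were known only for genes named beside Meis summits shared by the 2 limbs, so that these are not shares of all genes. The HL list thus helped to decide which genes had a start.

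Over all 10 dense bins within 100 kb of a Hox start, 63 of 127 members (49.6%, 41.1 to 58.2) were overlapped by an HL region and 37 (29.1%) had a q of at most 0.05. Over all autosomal FL regions the background was 22.5% and 17.4%. The median gap between members of these 10 bins was 1.36 kb, beside 3.27 kb in dense bins away from Hox starts and Sfi1. Gaps within a bin of fixed size depend on its FL count, which the rule used, so they are no separate trait of these bins. The highest FL folds were 11.8 in the Hoxc5 bin (chromosome 15, 102811383 to 102811823), 11.6 in the Hoxd12 bin (chromosome 2, 74507825 to 74509469) and 11.5 in the Hoxc4 bin (chromosome 15, 102890797 to 102892269). The overlapping HL regions had 5.68, 5.45 and 6.14. Near the Hoxc5 start (102844776 to 102845307) the limbs were closer, with 10.9 in the FL and 10.4 in the HL. In the Hoxb1 and Hoxb2 bin the highest fold was 10.2 (96202365 to 96202638), with 4.65 in the HL. All 5 of these HL regions had a q of at most 0.05.

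Neighbouring dense bins formed 43 runs that took in 100 of the 411 bins, and the longest run had 5 bins. That run ended at Zfp703 (chromosome 8, 27850001 to 28100000), which codes for a zinc finger corepressor of the NET family, and held 34 FL and 35 HL regions. HL regions overlapped 20 of the 34, and 15 of the 34 had a q of at most 0.05. Within 500 kb of the Zfp703 start lay 8 dense bins. The bin with the start itself held 11 FL and 9 HL regions, and its highest region (28094897 to 28095547) had folds of 11.6 in the FL and 11.7 in the HL. The region from 27787821 to 27788607 had 16.9 in the FL and 5.83 in the HL, and had the largest ratio of FL to HL fold among members with a q of at most 0.05 in both limbs.

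Zfp503, the paralogue of Zfp703, had a similar setting on chromosome 14. Its own bin (22800001 to 22850000) held 9 FL and 8 HL regions, and 8 of the 9 had a q of at most 0.05. Folds of 17.7 in the FL and 13.6 in the HL were found from 22813228 to 22814126, and of 15.3 and 16.9 from 22810148 to 22810977. A run of 3 dense bins followed from 22900001 to 23050000 with 21 FL and 15 HL regions. Another run of 3, from 23400001 to 23550000, held 21 and 11 and had no gene start within 500 kb of its bin centres in the annotation used. It contained a region (23468822 to 23469545) with 13.8 in the FL and 18.2 in the HL.

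The HoxB run of 3 bins held 60 FL and 42 HL regions, and HL regions overlapped 25 of the 60. A further run lay at Sfi1, a gene for a centrosomal protein, near the first listed positions of chromosome 11 (3000001 to 3100000), with 32 FL and 30 HL regions. There the folds were low throughout, up to 2.35 in the FL and 1.93 in the HL, and 2 FL regions and no HL region had a q of at most 0.05. HL regions nevertheless overlapped 19 of the 32 (59.4%, 42.3 to 74.5), and the median gap was 0.715 kb. Another run differed in this. It comprised 4 bins (chromosome 10, 79300001 to 79500000) and held 26 FL and 11 HL regions. The nearest start in the annotation used was that of Gpx4, 41.8 to 191.8 kb from the bin centres. Genes without a known start may lie closer. No FL region of this run was overlapped by an HL region. No region in either limb had a q of at most 0.05, and the highest folds were 3.76 and 3.05. Around Gpx4, 10 dense bins lay within 500 kb, more than around any other start in the annotation used. HL regions overlapped 1 of the 87 FL regions in that window, and 64 HL regions lay there. The background over all autosomal FL regions was 22.5%. In the 180 dense bins without an FL region at a q of at most 0.05, 8.20% of members were overlapped. No member was overlapped in 136 of the 411 dense bins.

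**Figure D3:**
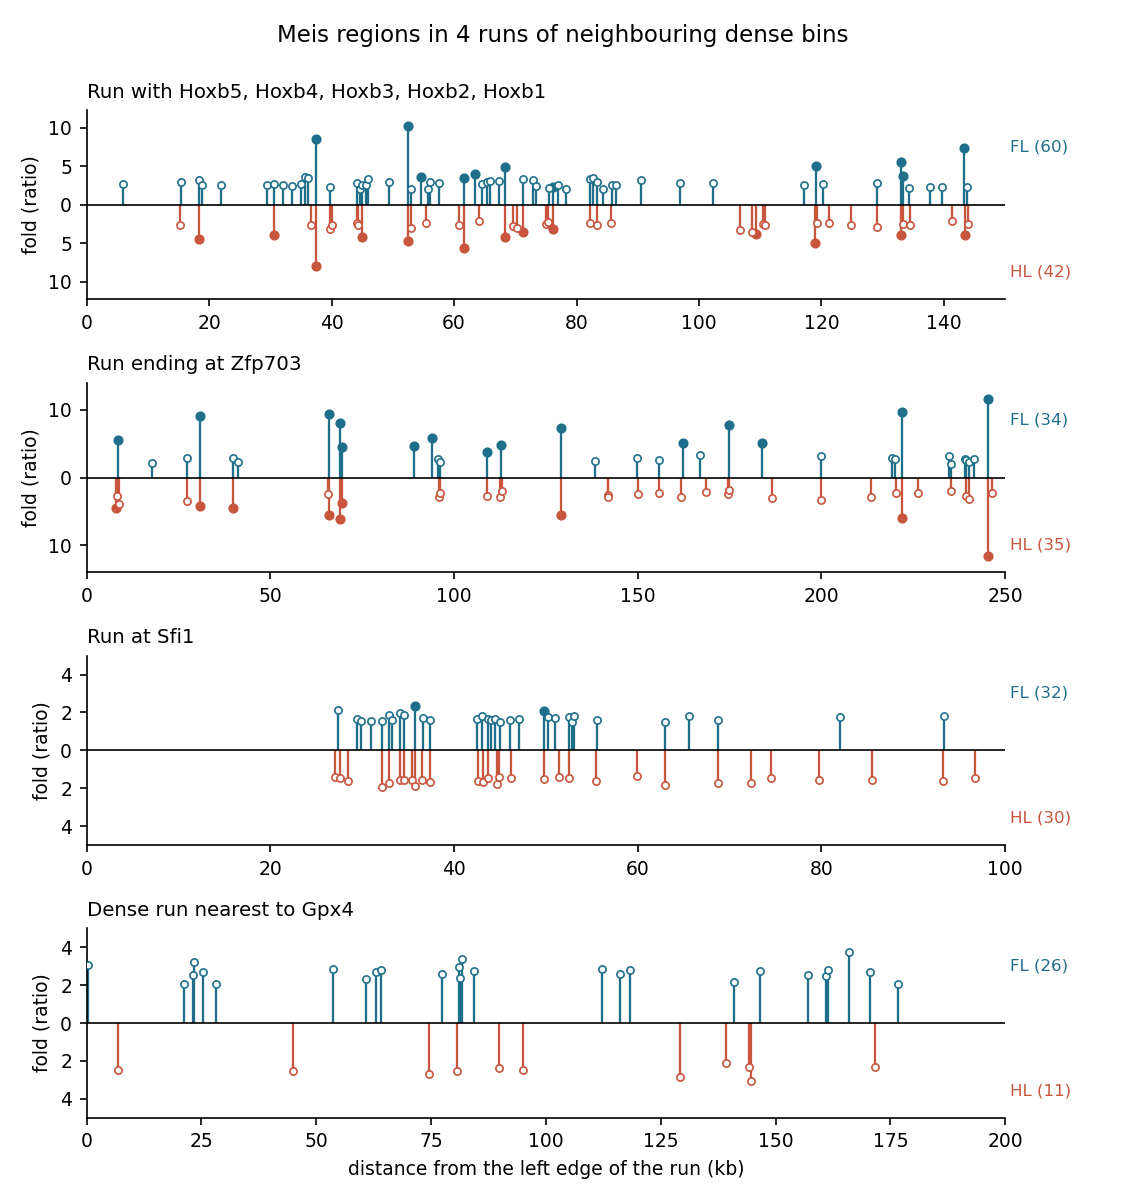
Fold enrichment of each FL region (upward, blue) and HL region (downward, red) along 4 of the 5 runs of neighbouring dense bins with the most FL regions, by distance in kb from the left edge of the run. Filled points have a q of at most 0.05 and open points do not. HL regions overlap 25 of the 60 FL regions of the HoxB run, 20 of 34 at Zfp703 and 19 of 32 at Sfi1. Folds at Sfi1 are below 2.4. None of 26 is overlapped in the run whose nearest start in the annotation used is that of Gpx4.

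Without the 10 Hox bins and the 2 Sfi1 bins, a choice made after their values were seen, HL regions overlapped 571 of 2294 members (24.9%, 23.2 to 26.7). In the bins with 7 or more FL regions the share was then 165 of 540 (30.6%, 26.8 to 34.6) in place of 34.9%. Among members with a fold from 3 to 5 it was 41.5% (37.6 to 45.6), and under 3 it was 10.7% (9.22 to 12.3).

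Among limb transcription factors outside the Hox clusters, 62 of the 85 listed genes had a start, 9 of these starts (14.5%) lay in a dense bin, and 19 (30.6%) lay within 100 kb of one. Over all genes with a start the background was 4.38% in a dense bin and 11.1% within 100 kb, with the same limit on known starts. The 9 were Alx4, Lhx2, Tbx3, Tbx18, Tfap2a, Tshz3, Zbtb16, Zfp503 and Zfp703. Tshz3, a teashirt zinc finger gene, had 10 FL and 8 HL regions in its bin (chromosome 7, 37450001 to 37500000), and HL regions overlapped 8 of the 10. Its highest fold was 10.51 in the FL, with 7.57 in the HL. Alx4, a homeobox gene that keeps posterior signals out of the anterior bud, had 6 and 4 and a highest FL fold of 8.46. Tfap2a had 6 and 5, with a highest FL fold of 4.39. Tbx3, a T-box gene needed for posterior limb elements, differed from these in its own bin (chromosome 5, 120100001 to 120150000). That bin held 9 FL and 5 HL regions with folds of at most 2.98 in the FL, none with a q of at most 0.05, and 1 of the 9 was overlapped. The dense bin before it, whose nearest start was also that of Tbx3, held 5 FL and 4 HL regions with a highest FL fold of 6.62. There 1 FL region had a q of at most 0.05, and HL regions overlapped 3 of the 5. The bins of Zbtb16 and Tbx18 held 6 FL regions each and that of Lhx2 held 5, with 1 HL region in each of the 3 bins. The highest FL fold in the Lhx2 bin was 2.97, and none of its FL regions had a q of at most 0.05.

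Of the TALE homeobox genes, 12 of 18 had a start, and those of Meis2 and Irx3 (16.7%) lay in dense bins. The background over all genes with a start was 4.38%, but 12 starts are too few to set against it. The Meis2 bin held 6 FL and 3 HL regions. The Irx3 bin (chromosome 8, 94300001 to 94350000) held 6 FL regions and no HL region, as did 7 dense bins with 6 FL regions in all, and its FL folds did not exceed 2.94. Irx3 has a known role in progenitors of the proximal and anterior HL. No FL region of that bin had a q of at most 0.05, so that the absence of HL regions was not set against a strong FL signal. The surroundings differed from that bin. Within 500 kb of the Irx3 start lay 4 dense bins, 46 FL regions and 35 HL regions. HL regions overlapped 19 of the 46, and 10 of the 46 had a q of at most 0.05.

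Signalling genes had 48 starts among 89 genes, and 6 (12.5%) lay in dense bins. Cdon and Gas1 code for co-receptors of Hedgehog ligands. The Cdon bin held 5 FL and 2 HL regions with a highest FL fold of 7.11, and both HL regions overlapped a member and had a q of at most 0.05. The Gas1 bin held 6 and 1, and none of its FL regions had a q of at most 0.05. The dense bin before it (chromosome 13, 60200001 to 60250000), whose nearest start was also that of Gas1, held 8 and 6. HL regions overlapped 4 of the 8, and 1 region in each limb had a q of at most 0.05. Gdf6, a ligand of the BMP family, had 7 and 3 with a highest FL fold of 8.01. Tcf7l2, a nuclear effector of Wnt signals, had 7 and 4, the Wnt11 ligand had 5 and 2, and Spred1, an inhibitor of the Ras pathway, had 5 and 2. The Wnt11 bin was part of a run of 4 dense bins with 21 FL and 8 HL regions. HL regions overlapped 3 of the 21, and the highest FL fold of the run was 8.46. Of the cell type markers, Lbx1 of migrating muscle progenitors was the 1 of 3 muscle markers with a start that lay in a dense bin, with 6 FL and 4 HL regions. No start of the blood (1), endothelium (2), neural crest and nerve (1) or ectoderm markers (3) lay in one, but these are too few starts to set against the background of 4.38%.

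The bin of Mapk15 and Fam83h (chromosome 15, 75800001 to 75850000) and an unnamed bin of chromosome 4 (140550001 to 140600000) each held 11 FL regions, with 3 and 4 HL regions and no region with a q of at most 0.05 in either limb. An HL region overlapped 1 of the 11 members in the former and none in the latter. A bin of chromosome 8 (74200001 to 74250000) had 10 FL and 3 HL regions, without any overlap. In that bin 1 FL region had a q of at most 0.05, with a fold of 4.12. The background of overlap over all autosomal FL regions was 22.5%, and 136 of the 411 dense bins had no overlapped member. The surplus of FL over HL regions was largest in the bins of Hoxb1 and Hoxb2 (12), of Hoxb3, Hoxb4 and Hoxb5 (10) and of Mapk15 (8), and was 7 in 5 further bins, among them those on chromosomes 4 and 8.

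All 10 members with the highest FL folds were overlapped by an HL region. The highest FL fold, 23.4, belonged to a region of chromosome 6 (36840179 to 36841054), where the HL fold was 16.0. A region of chromosome 7 (81516735 to 81517356) had 16.5 and 14.3, and that HL region was the only one in its bin. A region of chromosome 5 (111964842 to 111965448) had 14.0 in the FL and 5.60 in the HL. The highest HL fold within dense bins was 18.6, from 103135473 to 103136122 on chromosome 15 in the bin of Copz1 and Gpr84, where the FL fold was 11.1. Of the 459 members with a q of at most 0.05, HL regions overlapped 353 (76.9%, 72.8 to 80.5), and 185 of them (40.3%) had a q of at most 0.05 in both limbs. The corresponding shares over all 3684 such autosomal FL regions were 67.0% (65.5 to 68.5) and 32.3%.

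Of the 106 members with a q of at most 0.05 and no HL region, the 2 with the highest folds lay on chromosome 14, from 23416714 to 23417286 with 10.7 and from 68013002 to 68013719 with 9.95. In the other direction, 221 of the 235 HL regions of dense bins with a q of at most 0.05 (94.0%, 90.2 to 96.4) overlapped an FL region, beside 89.2% (87.7 to 90.6) of the 1710 such HL regions on all autosomes, and the 14 others of dense bins had folds up to 4.90. In all, FL regions overlapped 671 of the 1400 HL regions in dense bins (47.9%, 45.3 to 50.5), beside 28.8% (28.2 to 29.5) of all autosomal HL regions. Both the 94.0% and the 47.9% include what the choice of bins with many FL regions gives by itself.

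Where both limbs had a region, the FL fold was the higher in 424 of 653 members (64.9%), beside 62.0% over all autosomal FL regions with an HL region, and the median log2 ratio of FL to HL fold was 0.16, beside 0.17 in the other autosomal bins. Across the 653 pairs the folds had a Spearman correlation of 0.532, beside 0.429 over all 4765 autosomal pairs, given as a description, since each limb's folds come from 1 library and regions of a bin are not independent. The median distance from the highest FL summit to the nearest HL summit was 29 bp in these pairs and 29 bp in the other bins. Among pairs with a q of at most 0.05 in both limbs, those with the largest ratio of HL to FL fold were a region of chromosome 19 (56179502 to 56179974) with 4.60 in the FL and 11.4 in the HL, and 1 of chromosome 15 (83496861 to 83497682) with 3.11 and 6.76. Another (chromosome 13, 32091049 to 32091589), whose bin had Foxc1, a forkhead gene of mesenchyme, as its nearest start, had 3.87 and 7.89.

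**Figure D4:**
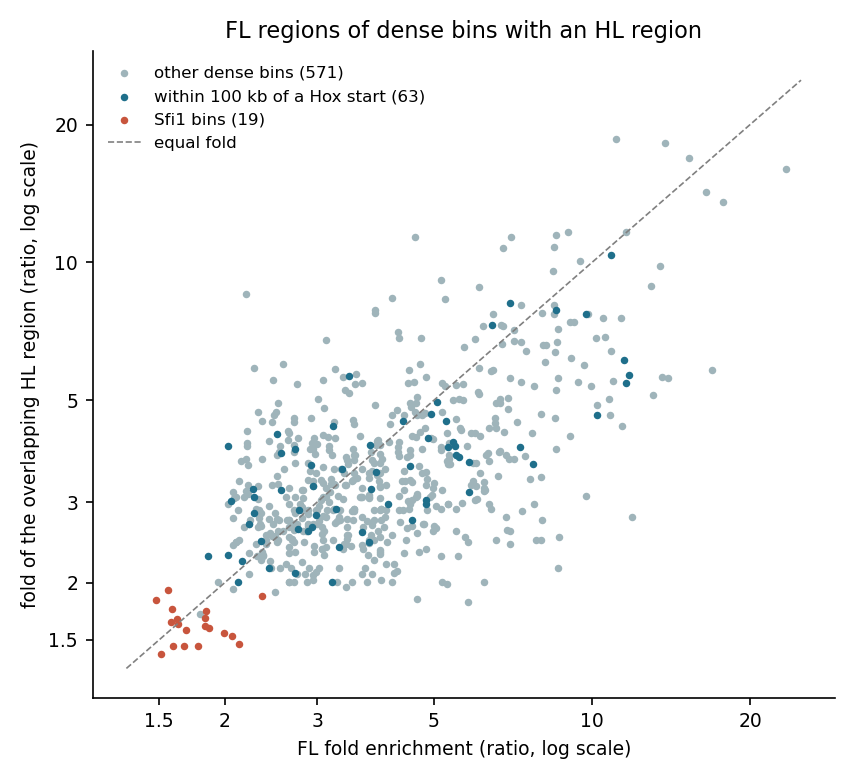
FL fold enrichment (horizontal) and the fold of the overlapping HL region (vertical), both as ratios on log scales, for the 653 members with an HL region. The 19 members of the Sfi1 bins lie at the lower left with FL folds up to 2.35, and 424 of the 653 points lie below the dashed line of equal folds.

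Dense bins were spread unevenly over the chromosomes. Chromosomes 11 and 8 had the most, 40 and 38, with 18.6% and 17.3% of their FL regions in them. Chromosomes 16 and 3 had the fewest, 5 and 6, with 3.94% and 3.65% of their FL regions.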

How the data were processed

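The submitters' processing notes name CASAVA 1.8.2, cutadapt 1.3, BWA, SAMtools, MACS2 and mm9. Peaks were called by the authors for each ChIP library against the input of its limb. The deposited fold is the ratio of ChIP signal to local background, the deposited −log10 values are those of p and q, and the deposited score of the authors' peak caller was not used. A read depth is not part of the lists. It may limit which regions appear, which was not tested.

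The 22906 FL and 17810 HL summits with equal chromosome, start and end were collapsed to 21338 and 16987 regions, each with its highest fold and lowest p and q. An overlap required 1 bp. Wilson intervals at 95% cover counting error only. Positions are in mm9, counted from 1. The mm9 position of a gene start was derived from summit positions and the distances to genes that the study tabulated (the part of that table at hand). That table covers summits shared by FL and HL. Strands came from GENCODE M21. Starts were kept where all distances to a gene agreed within 2 bp (735 of 740 genes with several). This gave 1987 genes. No coordinate was converted between builds, and no region sequence was read because a genome of mm9 was not used here. Promoters came from RefSeq (GRCm38.p6). An entry was found for 11 of the 16 genes with a region at the start.

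The bins named were the 10 with the most FL regions, the 5 with the most HL regions, the 5 with the largest FL surplus, the 5 with the highest FL fold, the 5 runs with the most FL regions, and those with the start of a listed gene. The Zfp503, Foxc1 and Wnt11 runs and the Copz1 and Smug1 bins were named after their values were seen. So were single regions without a partner or with unequal folds. The same holds for the neighbours of the Hoxd12, Tbx3 and Gas1 bins and the windows around Gpx4, Zfp703 and Irx3. A result of the rule that needs an item withheld for evaluation is not reported here. The members and lists were chosen with earlier results of these data known. The alternatives changed the bins, the threshold, the p or q of both lists, the overlap, the counting of summits, merging and chromosomes. The counting of dense bins and overlaps was tested on simulated lists and returned the planted numbers. The software was Python 3.11.15, scipy 1.17.1, numpy 2.4.6, matplotlib 3.10.9 and pandas 2.3.3.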

Additional observations from a re-analysis of the deposited data

How the results depend on the processing

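The 6 counts and shares were recomputed under the alternatives that bear on them, and 39 of the 79 values stayed within 1.5 times a main count or within the Wilson interval of a main share, while the 40 given next did not. Bins of 25 kb with the same minimum gave 140 dense bins, 834 members, 441 HL regions, 31.3% of members overlapped by an HL region and 20.5% with a q of at most 0.05. Bins of 100 kb gave 836, 5452, 3535, 23.7% and 17.0%, and 37.7% of dense bins with 5 or more HL regions. Bins shifted by 25 kb gave 29.1% of the latter. A minimum of 4 FL regions gave 873 dense bins, 4301 members, 2415 HL regions, 24.8% overlapped and 16.3% of bins with 5 or more HL regions, and a minimum of 6 gave 185, 1323, 767, 28.8% and 33.0%. With p at most 0.0005 in both lists, 26 dense bins with 169 members and 106 HL regions were left, 50.3% of members were overlapped, 55.6% had a q of at most 0.05 and 38.5% of bins had 5 or more HL regions. With q at most 0.05 in both lists, 7 dense bins with 45 members and 24 HL regions were left, and 51.1% of members were overlapped. Merging regions less than 1 kb apart gave 194 dense bins, 1087 members and 635 HL regions. Counting summits gave 36.6% overlapped and 22.3% with a q of at most 0.05. The overlapped share was 19.2% when 50% of the FL region had to be covered, 24.1% for summits within 100 bp, and 24.9% without the Hox and Sfi1 bins. Leaving out these bins was chosen after seeing the data. Narrower or wider bins and stricter lists change the counts by construction, and for the other shares the cause was not tested. Including the X chromosome added 1 bin with 14 FL and 15 HL regions. No paired analysis was possible because the results come from no test and each limb had 1 ChIP library. The number of dense bins thus depends on the bin, the minimum and the reach of the lists into weak regions. Read depth may limit which weak regions were listed in each limb, but it was not used here and its part was not tested. The other 2 rules of overlap bear on the overlapped share alone, and the share with a q of at most 0.05 was not computed where both lists were limited to such regions.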
